A study of Oryctolagus cuniculus with 3 samples.

Results

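Terminally differentiated rabbit corneal epithelial cells on day 10 of culture were set against committed cells of the same line on day 6, across all genes that could be measured. A gene entered when it reached 1 CPM (count of fragments per 1000000 fragments, after scaling of the libraries) on either day, which held for 12544 of the 20536 gene names in the tables. The cells were RCE1(5T5), a line of rabbit corneal epithelial cells, and 1 library was made for each of 3 stages: non-differentiated on day 4, committed on day 6 and terminally differentiated on day 10. All cultures grew with mitomycin C-treated mouse 3T3 fibroblasts as a feeder layer, in DMEM-F12 medium with 5% fetal calf serum, insulin, transferrin, hydrocortisone, triiodothyronine, cholera toxin, adenine and epidermal growth factor at 10 ng/ml. The feeder cells were lifted off with 0.02% EDTA for 5 minutes before RNA was taken with Trizol, and TruSeq RNA libraries were sequenced. With 1 library a day there was no replicate and no test. Stage, day in culture, time of harvest and library cannot be told apart, and no difference has a replicate check.

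The corneal epithelium is a stratified, non-keratinizing sheet that is renewed from its base. Basal cells divide, leave the cell cycle and move up, and the keratin pair KRT3 and KRT12 marks the corneal path. Cells at the surface carry membrane mucins, sealed junctions and water channels, and they are shed by the cutting of the desmosomes that hold them together. Cells in growth copy their DNA, make ribosomes and import amino acids, and these programmes are commonly lowered when an epithelial cell differentiates for good.

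The committed library held 12582706 fragments and the terminally differentiated one 10899578; the day 4 library, used here for levels only, held 10171693. Of the markers of corneal epithelium, KRT3 had 954 CPM on day 6 against 2018 on day 10 and KRT12 19.3 against 120.7, after 0 on day 4. PAX6 had 127 against 358 CPM and TP63 162 against 119.7, so these markers of the labelled tissue were present on both days. Apart from fibroblast markers, most markers sought for other cell types did not reach 1 CPM on either day. Of 12 immune markers sought, 2 reached 1 CPM on either day, and the summed level of that list was 27.6 CPM on day 6 against 70.4 on day 10. Of 8 melanocyte markers 3 did so (11.1 against 36 CPM), of 7 endothelial ones 2 (8.87 against 8.01 CPM), of 10 epidermal ones 3 (208 against 145 CPM) and of 9 goblet cell ones 3 (23.7 against 153 CPM, nearly all of it KRT7 and AGR2). With a minimum of 5 CPM, 1 epidermal gene remained. It held most of the epidermal sum, so epidermal markers were not absent on either day. Its level was lower on day 10, by less than 2-fold (a difference of log2(CPM + 1) of -0.56). TYROBP, FCER1G and CD3E of immune cells, TYR and MLANA of pigment cells and PECAM1 of vessel lining had 0 fragments on both days, and LOR of cornified skin had 1 fragment a day. MUC5AC, the gel mucin of goblet cells, had 1 fragment on day 6 and 8 on day 10. CD68, found in lysosomes and used to mark macrophages, rose from 25.1 to 68 CPM, and PMEL, a pigment cell gene, from 7.8 to 28.5 CPM. Fibroblast markers were present on both days and are described with the matrix genes.

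On day 10, 1058 of the measured genes were at least 2-fold higher than on day 6, which is 8.43%, and 910 were at least 2-fold lower, which is 7.25%. The other 10576 genes differed by less. A gene is said below to have risen or fallen only past this limit of 2-fold, taken on the scale log2(CPM + 1), where the change of a low gene comes out too small. Folds are ratios of CPM without the added 1, and brackets give the exact 95% counting interval of the fragments, which covers counting error only. The median difference of all measured genes was -0.01 on the log2 scale, and the middle 50% of genes lay between -0.46 and 0.45. More rises than falls were large. At 4-fold there were 215 genes higher and 32 lower, at 8-fold 77 and 2, and at 16-fold 31 and 0. The whole counting interval lay beyond 2-fold for 747 of the risers and 535 of the fallers. The median level of the risers was 6.05 CPM on day 6 against 22.2 on day 10, and their share of all fragments went from 2.15% to 7.95%. Fallers went from a median of 25.9 CPM to 9.65 CPM, and from 9.82% to 4.03% of fragments. A gene measured on day 10 alone could only be higher there, and this held for 583 genes, against 339 measured on day 6 alone. Just inside the limit of 2-fold lay the cell death gene GSDMA, at 0.912 to 2.83 CPM, and the collagen chaperone SERPINH1, at 175 to 86.9 CPM. Just outside lay TSTD3, at 5.06 and 11.1 CPM, and SLC29A2, at 14.2 and 6.59 CPM. At the limit of 1 CPM, the junction gene CLDN7 entered with 11 fragments on day 10, while CAV3, with 12 fragments in the larger day 6 library, did not.

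**Figure D1:**
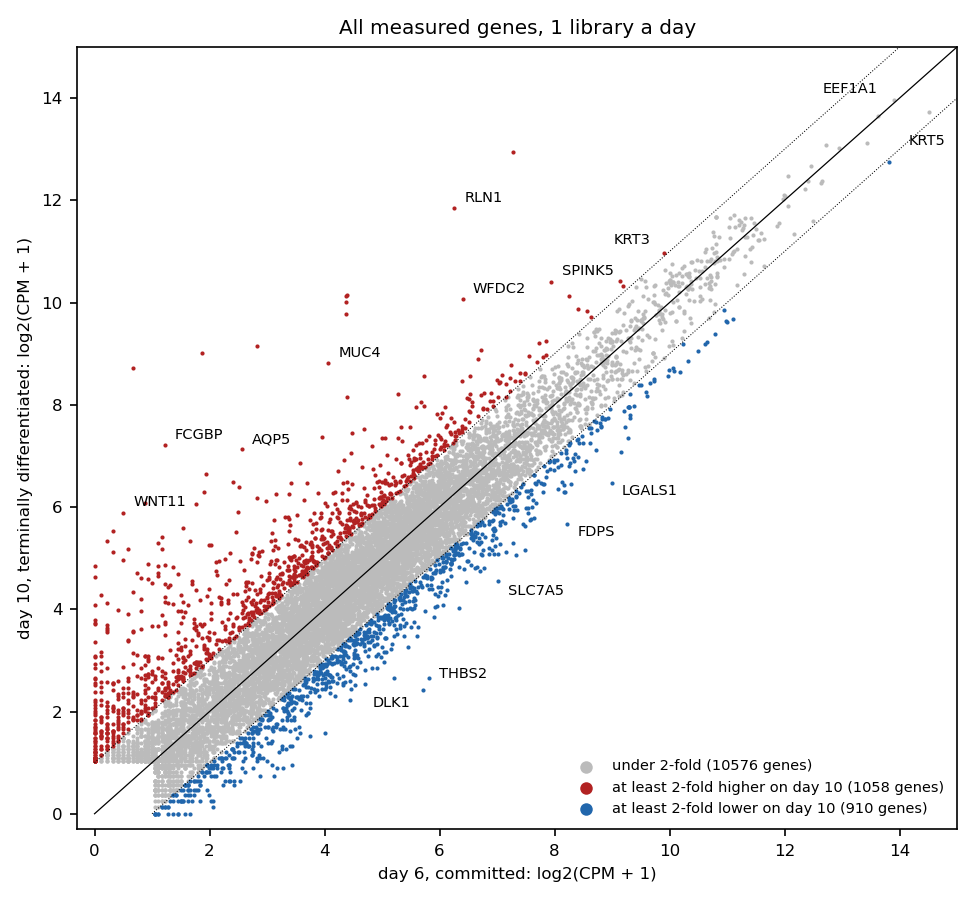
Level of each of the 12544 measured genes on day 6 (horizontal axis) and day 10 (vertical axis), both as log2(CPM + 1), with 1 library a day and no error bars. Each point is a gene, the solid line marks equal levels and the dotted lines 2-fold; the red points, 1058 genes at least 2-fold higher on day 10, spread further from the line than the 910 blue points of genes at least 2-fold lower.

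Among the largest rises of genes with a name, FCGBP, a mucus-binding protein, went from 16 fragments on day 6 to 1562 on day 10, or 1.33 to 147 CPM, 111-fold [68 to 194]. WNT11, a WNT ligand, rose from 0.415 to 58.3 CPM, 141-fold [59.9 to 434]. RARRES1, a gene first found as induced by retinoids, rose from 0.249 to 33.7 CPM, 136-fold [46 to 660.3]. CYP4B1, a monooxygenase, rose from 2.82 to 99.3 CPM, 35.2-fold [25 to 51.1]. Further rises of more than 10-fold were those of AIF1L, an actin-binding protein (0.498 to 35.4 CPM), DMBT1, a secreted scavenger receptor of mucosal surfaces (1.91 to 47.3 CPM), the lipoprotein receptor APOBR (1.24 to 35 CPM), the carboxylesterase CES1 (0.663 to 25.2 CPM) and the ectonucleotidase ENPP3 (4.73 to 83.3 CPM). The relaxin gene RLN1 rose from 75.2 to 3696 CPM, 49.1-fold [46 to 52.5]. Another 5 genes, with no symbol, rose in parallel by 44.7- to 56.8-fold, and how reads of near-identical copies were counted is not given in the sources used here. The highest of them, LOC100341333, rose from 154 to 7859 CPM, and it and LOC108175413 lie beside RLN1 in the mOryCun1.1 assembly. The others, LOC100346250, LOC100346509 and LOC100347029, had 19.9, 19.8 and 19.7 CPM on day 6 against 1131, 1032 and 879 on day 10. All 6 had been higher on day 4 than on day 6, RLN1 at 349 CPM and LOC100341333 at 754 CPM.

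Among the largest falls of genes with a name, DLK1, a membrane protein of immature cells, fell from 51.2 to 4.33 CPM, 11.8-fold [8.76 to 16.3], after 189.9 CPM on day 4. The part of remaining feeder RNA in these falls was not tested. ODC1, the rate-limiting enzyme of polyamine synthesis, fell from 160 to 32.3 CPM, 4.95-fold [4.41 to 5.57]. LGALS1, a galectin, fell from 509 to 88 CPM, 5.78-fold [5.4 to 6.2]; it had been at 206 CPM on day 4, so its level was highest on day 6. LRRC59, a ribosome-binding protein of the endoplasmic reticulum, fell from 79.6 to 15.3 CPM, and PDSS1, which makes the side chain of coenzyme Q, from 25.1 to 4.8 CPM. The mitochondrial creatine kinase CKMT1B fell from 141 to 34 CPM, 4.16-fold [3.71 to 4.67], and the scavenger lectin COLEC12 from 29 to 6.22 CPM. In CPM, which is not scaled to gene length, the largest loss was that of KRT5, the basal keratin, at 23374 CPM on day 6 against 13552 on day 10. LOC100344686, a neighbour of KRT19 in mOryCun1.1, fell from 14401 to 6882 CPM, and the annexin ANXA2 was at 5797 CPM on day 6 against 3110.2 on day 10. After them came LDHA, a subunit of lactate dehydrogenase, at 11030.3 and 8879 CPM, LOC108176694 at 4597 and 2582 CPM and the chaperone HSP90AB1 at 3180.1 and 1673 CPM on days 6 and 10. The beta tubulins TUBB, TUBB3, TUBB4A and TUBB6 fell by 2.53- to 2.69-fold. Their levels lay close to each other on each day, with 1779 to 2198 CPM on day 6, and shared reads may have been counted under several of these near-identical genes, so they count as 1 fall. The 10 genes with the largest gains made up 13.5% of all CPM gained, and the 10 with the largest losses 16.7% of all CPM lost, so both sums were spread over many genes.

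The gene lists below were described by the number of their measured members that rose and fell and by the median of their differences, beside 8.43%, 7.25% and -0.01 for all measured genes. Lists share genes. In bulk RNA, fewer cells of a type and less RNA per cell cannot be told apart.

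**Figure D2:**
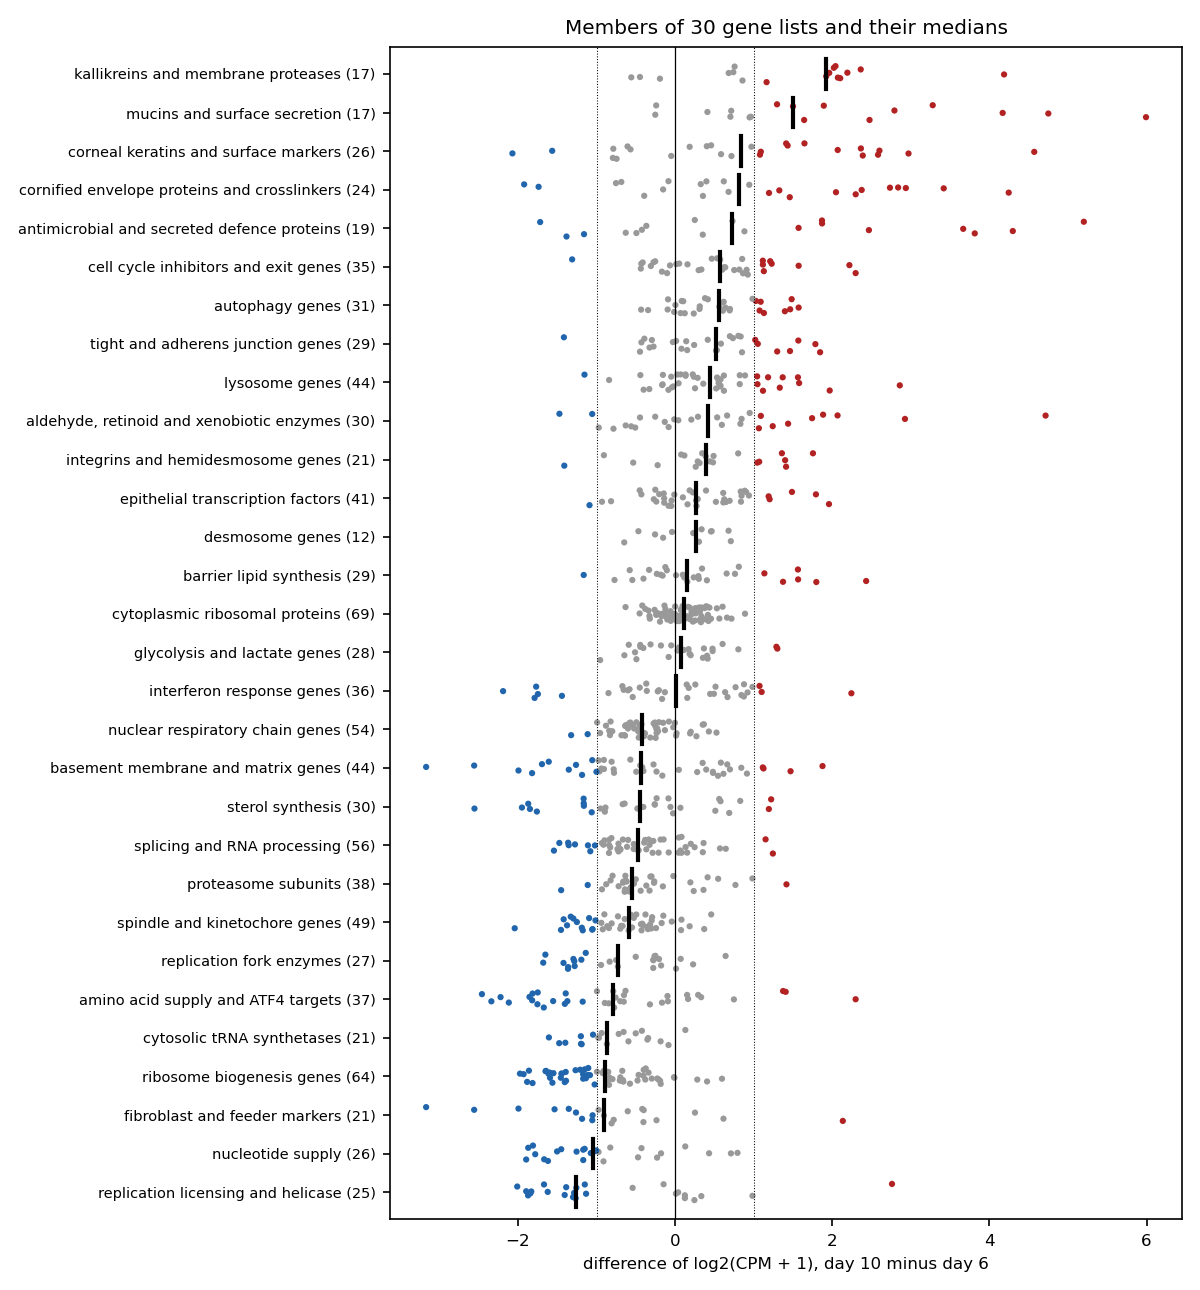
Difference of log2(CPM + 1), day 10 minus day 6, of each measured member (points, red or blue past 2-fold) of 30 gene lists, with the list's median as a black bar and the number of measured members in brackets. The solid vertical line is the median of all measured genes, at -0.01; medians run from -1.26 for replication licensing to 1.92 for kallikreins and membrane proteases.

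Several keratins of corneal and mucosal epithelia rose, and KRT16 and KRT17 fell. The corneal pair KRT3 and KRT12, whose levels are given above, rose 2.115-fold [2.07 to 2.16] and 6.24-fold [5.43 to 7.21]. On the list of corneal keratins and surface markers, 12 of 26 measured genes rose and 2 fell (median difference 0.84 on the log2 scale). KRT4 and KRT13, the keratin pair of wet stratified epithelia, rose from 49.9 to 266 CPM, 5.32-fold [4.87 to 5.82], and from 88.2 to 278 CPM, 3.15-fold [2.94 to 3.39]. KRT78 rose from 82.7 to 350.2 CPM, 4.24-fold [3.95 to 4.55], and KRT7, a keratin of simple and glandular epithelia, from 20.9 to 132 CPM, 6.3-fold [5.51 to 7.24]. KRT15, often used as a marker of limbal and basal cells, rose with them, from 104 to 540.2 CPM, and had been at 15.1 CPM on day 4. The glycolipid-anchored protein PSCA rose from 21.2 to 173 CPM. KRT16 and KRT17, keratins of wounded and fast-growing epidermis, fell from 567 to 134 CPM, 4.22-fold [3.99 to 4.47], and from 120 to 39.9 CPM, 3-fold [2.69 to 3.36]. KRT19 was at 2374 CPM on day 6 against 3140.5 on day 10, and the simple keratins KRT8 and KRT18 were at 482 and 466 CPM and 399 and 262 CPM on the 2 days.

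On the list of epithelial transcription factors, 5 of 41 rose and 1 fell (median 0.27). PAX6, the eye field factor that also marks corneal epithelium, rose from 127 to 358 CPM, 2.82-fold [2.65 to 2.99]. ELF3, an ETS factor of differentiating epithelia, rose from 65.3 to 228 CPM, 3.5-fold [3.23 to 3.8], HOPX, a homeodomain cofactor, from 12.8 to 30.7 CPM, 2.4-fold [1.98 to 2.93], and PRDM1, a repressor found in terminal differentiation of several lineages, from 0.663 to 5.46 CPM, 8.23-fold [3.91 to 20]. The single faller, TFAP2B, went from 16 fragments to 1. KLF4 was at 11.5 and 16.9 CPM, EHF at 83.2 and 149.5 CPM, GRHL3 at 15.7 and 16.9 CPM and ZNF750 at 19.9 and 18.7 CPM on days 6 and 10, all under 2-fold. Of the Notch pathway, which acts in the switch from basal to suprabasal cells, 3 of 18 measured genes rose and 0 fell. The targets HES1 and HEY1 rose from 22 to 51.4 CPM and from 2.4 to 6.59 CPM, and ADAM10, the protease that cuts the receptor, from 67.4 to 156 CPM. The receptors NOTCH2 and NOTCH3 were at 32.9 and 64.1 CPM and 268 and 365 CPM, and the ligands JAG1 and DLL1 at 147 and 159 CPM and 45.8 and 66.9 CPM.

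Genes of the cornified envelope rose in part, and the crosslinking enzyme TGM1 fell. Of 24 measured members 11 rose and 2 fell (median 0.81). CDSN, the adhesive protein of corneodesmosomes, rose from 1.24 to 41.5 CPM, 33.4-fold [20 to 60.2], NCCRP1 from 14.4 to 164 CPM, 11.4-fold [9.71 to 13.3], and SCEL, the envelope precursor sciellin, from 52.2 to 379 CPM, 7.27-fold [6.68 to 7.92]. KRTDAP, a small secreted protein of differentiating keratinocytes, rose from 37.9 to 297 CPM, 7.83-fold [7.09 to 8.65], and the protease inhibitor CSTA from 32 to 161 CPM, 5.04-fold [4.51 to 5.64]. Some genes of the list were barely present even after a rise: SPRR3 went from 0.746 to 6.22 CPM, CRCT1 from 0.0829 to 1.98 CPM and FLG from 0 to 1.51 CPM. The transglutaminase TGM1 fell from 30.6 to 7.35 CPM, 4.17-fold [3.25 to 5.39], and TGM5 was at 11.4 and 8.48 CPM. The scaffold proteins EVPL, PPL and IVL were at 102 and 131 CPM, 212 and 327 CPM and 20.5 and 27.3 CPM.

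Several proteases that cut corneodesmosomes rose, and so did several protease inhibitors. Of 17 measured kallikreins and membrane proteases 10 rose and 0 fell (median 1.92). The size of that median depended on the setting: it was 1.20 with the top coding sequence of each gene, 1.16 with a minimum of 5 CPM, 0.86 with no minimum and 0.76 with a pseudocount of 5 CPM. KLK6 rose from 1.16 to 38.3 CPM, 33-fold [19.4 to 60.9], and KLK10 from 7.8 to 36.7 CPM, 4.71-fold [3.75 to 5.97]. KLK7 and KLK12 rose from 0.332 to 5.09 and 0.166 to 4.99 CPM, and KLK5, the protease that activates the others, went from 0 fragments to 34, at least 12.9-fold higher when the day 6 level is set at 3 fragments. TMPRSS4, a membrane serine protease, rose from 90.9 to 377 CPM, 4.15-fold [3.88 to 4.44], TMPRSS11D from 21.4 to 86.2 CPM, 4.03-fold [3.5 to 4.64], and TMPRSS2 from 3.57 to 17.5 CPM, 4.91-fold [3.51 to 7.01]. SPINK5, which codes for the kallikrein inhibitor LEKTI, rose from 246 to 1362 CPM, 5.54-fold [5.33 to 5.77]. Its relatives SPINK7 and SPINK9 rose from 0.829 to 66.3 CPM and from 2.4 to 65.9 CPM, and the cystatins CST6 and CST3 from 0.746 to 23.6 CPM and from 304 to 1114 CPM. ST14, the matriptase that starts many of these cascades, was at 97.4 CPM on day 6 against 85 on day 10, and the calpains CAPN1 and CAPN2 were at 578 and 392 CPM and 387 and 284 CPM.

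Several membrane mucins and enzymes that build them rose. Of 17 measured genes 10 rose and 0 fell (median 1.50); 33 had been sought, and 10 of those in the tables did not reach 1 CPM on either day. MUC4, a membrane mucin of the ocular surface, rose from 15.8 to 449.6 CPM, 28.5-fold [24.7 to 33.2], MUC20 from 1.33 to 21.6 CPM, 16.2-fold [9.8 to 28.9], and MUC21 from 1.82 to 18.6 CPM, 10.2-fold [6.53 to 16.6]. MUC1, at 18.6 CPM on day 6 against 37.2 on day 10, did not pass the limit on the log2(CPM + 1) scale. AGR2, a disulfide isomerase that folds mucins, went from 1 fragment to 196, 223-fold [39.5 to 8836]. GALNT12 and ST6GALNAC1, which start and cap the sugar chains of mucins, rose from 27.9 to 106 CPM, 3.81-fold [3.37 to 4.32], and from 15.7 to 46.1 CPM, 2.94-fold [2.48 to 3.5]. FUT2, which adds the secretor fucose, rose from 4.31 to 12.1 CPM, and PIGR, which carries antibodies across epithelia, from 1.82 to 14.7 CPM. Galectin-3, LGALS3, which crosslinks surface mucins, was at 1058 CPM on day 6 against 1737 on day 10. Among secreted defence proteins 8 of 19 rose and 3 fell (median 0.73). WFDC2, a small secreted protease inhibitor, rose from 83.5 to 1071 CPM, 12.8-fold [12 to 13.7], and LYZ, lysozyme, from 5 to 34 fragments. The complement genes C3 and C1S fell from 16.1 to 5.56 CPM and from 4.81 to 1.6 CPM, and A2ML1, a broad protease inhibitor, from 4.15 to 0.565 CPM, but 0 genes of the list were past 2-fold lower with the deposited TPM or with a pseudocount of 5 CPM. DEFB1, a constant epithelial defensin, was at 42.2 CPM on day 6 against 78.6 on day 10.

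Of the genes of skin-type barrier lipids, a few steps rose and most did not: 6 of 29 rose and 1 fell (median 0.16). ABCA12, which loads lipids into lamellar bodies, rose from 5.8 to 35.7 CPM, 6.15-fold [4.75 to 8.05]. ELOVL4, which makes very long fatty acids, rose from 8.04 to 30.4 CPM, 3.78-fold [3 to 4.79], SPTLC3, a subunit of the enzyme that starts ceramide synthesis, from 13.2 to 41 CPM, 3.11-fold [2.58 to 3.75], and UGCG, which makes glucosylceramide, from 13.6 to 36.8 CPM, 2.71-fold [2.25 to 3.27]. The ceramidase ASAH1 rose from 33.3 to 100.5 CPM, 3.01-fold [2.69 to 3.39]. The ceramide synthase CERS3 was at 11.1 and 18.1 CPM, SPTLC1 and SPTLC2 at 122 and 112 CPM and 34.6 and 37.6 CPM, and CYP4F22 at 4.64 and 8.57 CPM. ELOVL6, which makes common C18 fatty acids, fell from 21.5 to 9.04 CPM, 2.38-fold [1.87 to 3.04].

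**Figure D3:**
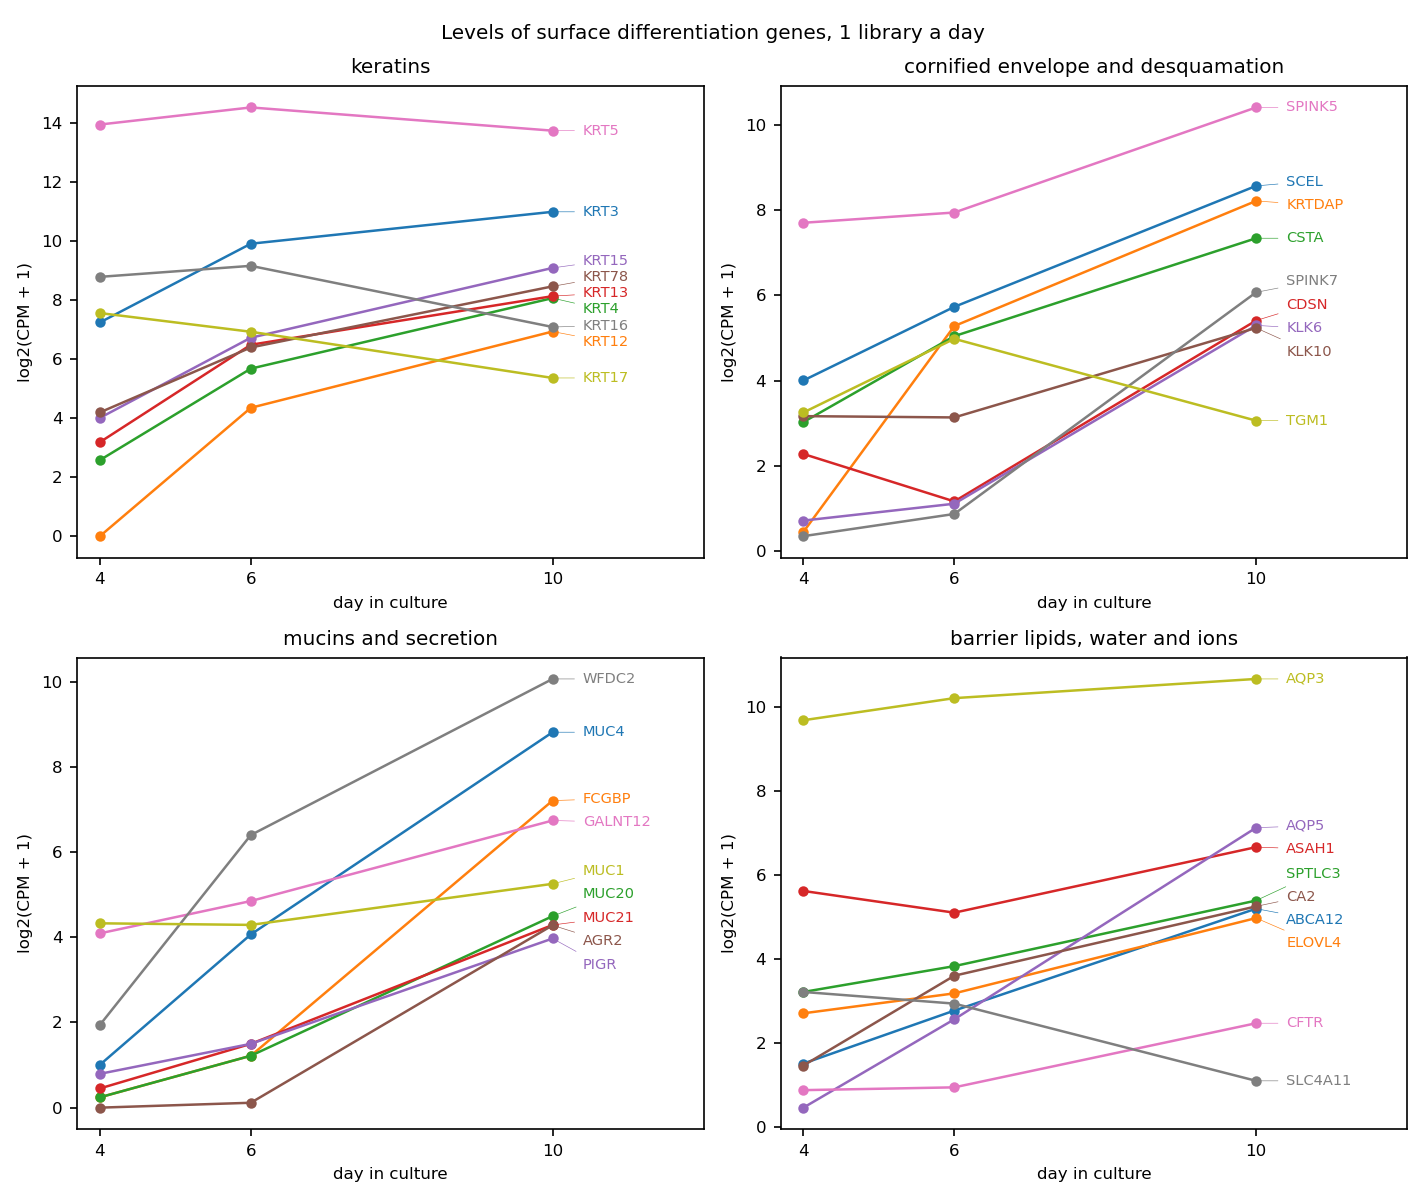
Levels of 36 genes of surface differentiation as log2(CPM + 1) on days 4, 6 and 10 of culture, 1 library a day and 1 line per gene, with no error bars; the panels hold keratins, cornified envelope and desquamation genes, mucins and secretion, and barrier lipids with water and ion channels. KRT16, KRT17, TGM1 and SLC4A11 ended lower on day 10 than on day 6, and SPINK5, MUC4 and AQP5 ended higher.

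Water and ion transport changed at a few channels. Of 33 measured genes 5 rose and 3 fell (median 0.17). AQP5, the apical water channel of the cornea, rose from 4.89 to 139 CPM, 28.4-fold [21.9 to 37.5], while AQP3, its basal relative, was at 1191 CPM on day 6 against 1637 on day 10 and AQP1 fell from 9.62 to 3.86 CPM, 2.49-fold [1.73 to 3.65]. The carbonic anhydrase CA2 rose from 11.1 to 37.1 CPM, 3.34-fold [2.74 to 4.09], the chloride channel CFTR from 0.912 to 4.52 CPM, 4.96-fold [2.54 to 10.6], and the bicarbonate cotransporter SLC4A4 from 4.73 to 11.6 CPM, 2.45-fold [1.78 to 3.42]. SLC12A2, the chloride loader of secretory epithelia, fell from 95.4 to 43 CPM, 2.22-fold [1.99 to 2.48], and SLC4A11, a transporter better known from the corneal endothelium, from 6.63 to 1.13 CPM, 5.87-fold [3.18 to 11.8]. ATP1B3, a subunit of the sodium pump, was at 146 and 282 CPM. Nutrient transporters moved both ways, with 6 up and 7 down of 40. FOLR1, a folate receptor, rose from 1.41 to 20.5 CPM, 14.6-fold [8.89 to 25.5], SLC6A14, a broad amino acid importer, from 6.88 to 68.2 CPM, 9.91-fold [7.88 to 12.6], and SLC44A2, a choline transporter, from 72.3 to 213 CPM. The exchanger SLC7A8 fell from 9.79 to 0.942 CPM, 10.4-fold [5.46 to 22.2], and the glucose transporter SLC2A1 was at 1152 and 1527 CPM.

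Some tight junction genes rose, and desmosome genes did not move past 2-fold. Of 29 tight and adherens junction genes 7 rose and 1 fell (median 0.52). CLDN8 rose from 0.746 to 5.27 CPM, 7.07-fold [3.47 to 16.2], and CLDN23 and CLDN3 from 1 and 3 fragments to 29 and 22. The junction adhesion protein F11R rose from 74.5 to 152 CPM, 2.04-fold [1.88 to 2.22], and CGNL1, which anchors the junction to actin, from 11.2 to 32.6 CPM, 2.91-fold [2.38 to 3.58]. CLDN1 was at 59 and 106 CPM, OCLN at 16.2 and 23.8 CPM and TJP1 at 46 and 69.3 CPM. The single faller was CDH3, the P-cadherin of basal cells, from 163 to 60.4 CPM; E-cadherin, CDH1, was at 209 CPM on day 6 against 155 on day 10. All 12 measured desmosome genes stayed under 2-fold (median 0.27), among them DSG1 at 94 and 151 CPM, DSC3 at 72.9 and 119.8 CPM, DSP at 1578 and 1322 CPM and PKP1 at 567 and 362 CPM. Of 9 gap junction genes 2 fell and 0 rose (median -0.75): GJB1 from 28.2 to 8.85 CPM, 3.19-fold [2.53 to 4.05], and GJB2 from 230.1 to 95.3 CPM. GJA1, connexin 43, was at 94.3 CPM on day 6 against 161 on day 10.

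Some genes that tie cells to the basement membrane rose, and more matrix genes fell than rose. Of 21 integrin and hemidesmosome genes 6 rose and 1 fell (median 0.39). The laminin chain LAMA3 rose from 230.3 to 609 CPM, 2.65-fold [2.53 to 2.77], while the chain LAMB3 was at 284 and 399 CPM. The integrins ITGB6 and ITGB8, whose proteins release latent TGF-beta, rose from 20.6 to 54.5 CPM and from 20 to 69.8 CPM, with their partner ITGAV from 50.7 to 108 CPM. ITGA6, ITGB4 and COL17A1 of the hemidesmosome were at 420.1 and 456 CPM, 509 and 436 CPM and 2411 and 3062 CPM, and its linker PLEC fell from 124 to 46.1 CPM, 2.69-fold [2.43 to 2.99]. Of 44 basement membrane and matrix genes 4 rose and 11 fell (median -0.43). The thrombospondins THBS2 and THBS1 fell from 55.4 to 5.27 CPM, 10.5-fold [7.99 to 14.1], and from 35.9 to 5.27 CPM, 6.81-fold [5.14 to 9.16], the proteoglycan VCAN from 22.1 to 5.56 CPM, 3.98-fold [3 to 5.38], the collagen VI chains COL6A2 and COL6A1 from 155 to 38.1 CPM and from 134 to 52 CPM, and the crosslinking enzyme LOX from 56.5 to 23 CPM. NID2, a linker of basement membranes, rose from 10.3 to 30.2 CPM, 2.94-fold [2.38 to 3.65], and the secreted factor CTGF from 17.1 to 65.4 CPM, 3.83-fold [3.27 to 4.49]. Fibroblasts, such as the feeder cells, also express such matrix genes. Of 21 measured markers of fibroblasts and feeder cells 9 fell and 1 rose (median -0.91), and their summed level went from 5298 CPM on day 6 to 3254 CPM on day 10, after 8563 CPM on day 4. None of the defining markers was at 0 on either day: COL1A1 was at 312 and 265 CPM, COL1A2 at 389 and 198 CPM and PDGFRA at 4.81 and 2.83 CPM, while COL3A1 fell from 420.1 to 202 CPM, DCN from 9.62 to 3.67 CPM, PDGFRB from 15.3 to 4.62 CPM and VIM from 1203 to 581 CPM. THY1 was the 1 riser, from 16.8 to 77 CPM. The part of remaining feeder RNA in the fall of the matrix genes, or of any other gene, was not tested. Among matrix proteases and their inhibitors 6 of 25 rose and 2 fell. ADAM8 rose from 0.995 to 21.9 CPM, 22-fold [12.3 to 43.1], MMP10 from 0.581 to 10.9 CPM, 18.8-fold [8.85 to 47.9], and the plasminogen activator PLAT from 90.5 to 275 CPM, 3.04-fold [2.83 to 3.26]. MMP9 fell from 11 to 3.11 CPM, 3.55-fold [2.41 to 5.37], and MMP3 from 2.9 to 0.377 CPM.

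Many genes that prepare DNA for copying fell. On the list of replication licensing and helicase genes 15 of 25 fell and 1 rose (median -1.26). All of MCM2 to MCM7, the ring of the replicative helicase, fell: MCM2 from 189.8 to 52.6 CPM, 3.6-fold [3.28 to 3.96], MCM5 from 200 to 54 CPM, 3.71-fold [3.38 to 4.07], and MCM7 from 266 to 109.8 CPM, 2.42-fold [2.26 to 2.59]. The other helicase parts GINS1, GINS2 and GINS4 fell from 35 to 9.04 CPM, from 22 to 4.71 CPM and from 25.1 to 6.03 CPM, and CDC45 from 38.6 to 11.9 CPM; GINS3 was at 2.99 and 3.01 CPM. The loading factors CDC6 and CDT1 fell from 12.4 to 3.2 CPM, 3.86-fold [2.64 to 5.78], and from 26.3 to 11.3 CPM. The origin recognition complex did not move as a unit. ORC1 fell from 19.1 to 7.16 CPM, 2.67-fold [2.05 to 3.5], ORC2, ORC3 and ORC5 stayed under 2-fold, ORC4, at 12 and 24.8 CPM, did not pass the limit on the log2(CPM + 1) scale, and ORC6 rose from 12 to 87.2 CPM, 7.25-fold [6.08 to 8.7]. The kinase pair CDC7 and DBF4, which fires origins, was at 12.4 and 13.6 CPM and 49.3 and 53.8 CPM. Of 27 enzymes of the replication fork 10 fell and 0 rose (median -0.73), with falls of POLE2, POLD2, FEN1, LIG1 and the clamp PCNA. POLE2 fell from 7.46 to 1.7 CPM, 4.4-fold [2.63 to 7.76], and POLD2 from 106 to 32.4 CPM, 3.27-fold [2.9 to 3.69]. The single-strand binding proteins RPA1, RPA2 and RPA3 were at 144 and 120.1 CPM, 32.2 and 26.4 CPM and 26 and 27.4 CPM, and TOP2A was at 247 and 204 CPM.

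**Figure D4:**
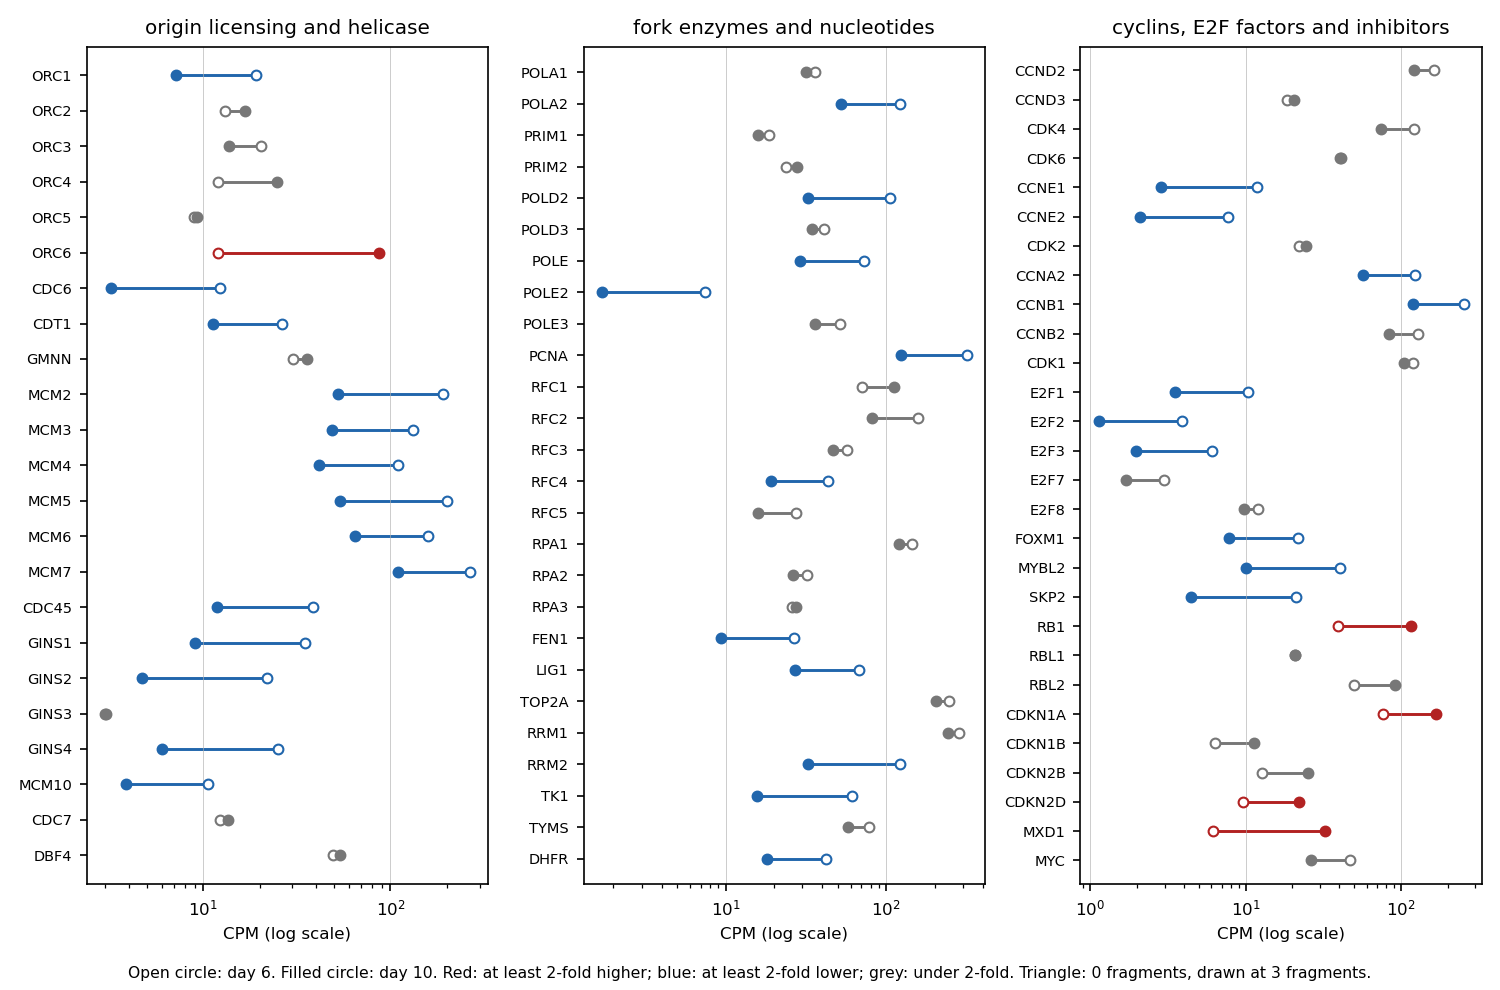
Levels in CPM on a log axis of 77 genes of DNA replication and the cell cycle on day 6 (open circles) and day 10 (filled circles), 1 library a day and no error bars. Every helicase ring gene from MCM2 to MCM7 lies lower on day 10, ORC6, RB1, CDKN1A, CDKN2D and MXD1 lie at least 2-fold higher, and CDK1, CDK2, CDK6 and TOP2A differ by less than 2-fold.

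Genes for the supply of nucleotides fell too: 15 of 26 genes fell and 0 rose (median -1.04). TK1, thymidine kinase, fell from 61.2 to 15.7 CPM, 3.89-fold [3.29 to 4.63], RRM2, the regulated subunit of ribonucleotide reductase, from 122 to 32.8 CPM, 3.73-fold [3.32 to 4.21], CTPS1, which makes CTP, from 67.2 to 18.5 CPM, 3.64-fold [3.11 to 4.28], and CAD, which starts pyrimidine synthesis, from 115 to 35.5 CPM, 3.23-fold [2.88 to 3.63]. RRM1, the constant subunit, was at 283 CPM on day 6 against 241 on day 10, and TYMS at 78.1 CPM on day 6 against 57.8 on day 10. Of 23 genes of chromatin assembly and DNA methylation 8 fell and 0 rose (median -0.94). The nuclear lamin genes LMNA and LMNB1 fell from 598 to 188 CPM, 3.18-fold [3.03 to 3.35], and from 193 to 75.1 CPM, 2.56-fold [2.37 to 2.78]. The histone chaperones CHAF1B and ASF1B fell from 22.9 to 7.25 CPM and from 15.8 to 4.99 CPM. The maintenance methylase DNMT1 was at 129 and 64.8 CPM and EZH2 at 46.4 and 46.4 CPM. Of 33 DNA repair genes 4 fell and 0 rose, led by the helicase BLM, from 20.3 to 7.35 CPM.

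Cyclins of the G1 to S step and the E2F activators fell, and several inhibitors rose. Of 37 cyclins, kinases and E2F factors 12 fell and 1 rose (median -0.62). CCNE1 fell from 11.8 to 2.83 CPM, 4.17-fold [2.8 to 6.4], CCNE2 from 7.63 to 2.07 CPM, 3.68-fold [2.29 to 6.16], and SKP2, which destroys the inhibitor p27, from 21 to 4.43 CPM, 4.74-fold [3.46 to 6.62]. The activators E2F1, E2F2 and E2F3 fell from 10.4 to 3.48 CPM, from 3.9 to 1.13 CPM and from 6.05 to 1.98 CPM, and the mitotic factors MYBL2 and FOXM1 from 40.6 to 10.1 CPM and from 21.7 to 7.82 CPM. The 1 riser was RB1, the brake on E2F, from 39.3 to 116 CPM, 2.95-fold [2.65 to 3.29]. The kinases CDK1, CDK2, CDK4 and CDK6 were at 119.8 and 104 CPM, 21.9 and 24.6 CPM, 121 and 73.9 CPM and 40.4 and 40.9 CPM. Of 35 measured inhibitors and exit genes 8 rose and 1 fell (median 0.57). MXD1, which competes with MYC for its partner, rose from 6.14 to 32.2 CPM, 5.25-fold [4.07 to 6.84], and MYC was at 47.3 and 26.4 CPM. The stress cofactor NUPR1 rose from 2.9 to 18.2 CPM, 6.26-fold [4.35 to 9.25], the inhibitors CDKN1A and CDKN2D from 76.7 to 168 CPM and from 9.54 to 22 CPM, and HBP1, a repressor of cell cycle genes, from 79.7 to 174 CPM. SFN, the epithelial 14-3-3 protein and p53 target, fell from 1017 to 409.7 CPM, 2.48-fold [2.4 to 2.57]. Some genes of mitosis fell and others were close to level. Of 49 spindle and kinetochore genes 13 fell and 0 rose (median -0.59), and of 25 cohesin, condensin and anaphase genes 9 fell and 0 rose. AURKB fell from 58.5 to 13.5 CPM, 4.35-fold [3.63 to 5.24], PLK1 from 102 to 38.5 CPM, 2.63-fold [2.35 to 2.96], and CDC20, which starts anaphase, from 222 to 77.9 CPM, 2.85-fold [2.64 to 3.09]. CENPE was at 64.4 and 62.5 CPM, KIF20B at 73.2 and 77.1 CPM, CENPF at 156 and 138 CPM and SMC3 at 177 and 241 CPM.

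Many genes that build ribosomes fell, while those coding for ribosomal proteins did not move past 2-fold. Of 64 ribosome biogenesis genes 28 fell and 0 rose (median -0.89), and 61 of them lay below 0. NOC2L fell from 87.4 to 22.2 CPM, 3.93-fold [3.41 to 4.55], FBL, the RNA methylase of the nucleolus, from 205 to 66.3 CPM, 3.09-fold [2.84 to 3.36], DKC1, which modifies ribosomal RNA, from 85 to 26.6 CPM, 3.2-fold [2.8 to 3.67], and POLR1A, the large subunit of RNA polymerase I, from 33.7 to 12.2 CPM, 2.75-fold [2.25 to 3.38]. None of the 69 cytoplasmic ribosomal protein genes rose or fell (median 0.11), and together they took 11.2% of fragments on day 6 and 12.2% on day 10. Of 70 mitochondrial ribosomal protein genes 12 fell and 0 rose (median -0.41). Of 44 translation factors 7 fell and 0 rose (median -0.22), among them EIF4EBP1, the brake on cap binding, from 68.7 to 22.9 CPM, 3-fold [2.6 to 3.48], and EIF5A from 445 to 189.5 CPM, 2.35-fold [2.23 to 2.47]. EEF1A1, which delivers transfer RNA to the ribosome, was at 15241 CPM on day 6 against 16074 on day 10, and EIF3E at 629 CPM on day 6 against 1007 on day 10. Of 21 cytosolic tRNA synthetases 7 fell and 0 rose (median -0.87), MARS most, from 194 to 63 CPM, 3.08-fold [2.82 to 3.36]. Amino acid supply genes fell in part: 15 of 37 genes fell and 3 rose (median -0.79). SLC7A5, the importer of large neutral amino acids, fell from 128 to 22.5 CPM, 5.69-fold [4.96 to 6.55], the serine exchanger SLC1A4 from 68.7 to 19.7 CPM, 3.49-fold [2.99 to 4.08], and the glutamine importer SLC1A5 from 37.5 to 10.4 CPM, 3.59-fold [2.91 to 4.45]. MTHFD2 and SHMT2, the mitochondrial enzymes that take 1-carbon units from serine, fell from 179 to 34.6 CPM, 5.17-fold [4.63 to 5.79], and from 191 to 53.5 CPM, 3.58-fold [3.26 to 3.93], and ASNS and PHGDH, which make asparagine and serine, from 96.9 to 26.8 CPM and from 186 to 57.7 CPM. Within the same list the stress genes NUPR1 and DDIT3 rose, the latter from 9.29 to 26.3 CPM, while CHAC1 and TRIB3 fell from 9.87 to 1.51 CPM and from 13.6 to 5.46 CPM. Their regulator ATF4, at 61.8 and 30.5 CPM, did not pass the limit on the log2(CPM + 1) scale. PSAT1, another serine enzyme, was at 423 CPM on day 6 against 710.5 on day 10. Nuclear transport and splicing genes ran lower as well. Of 44 nuclear import and export genes 10 fell and 0 rose (median -0.54), with the RAN cycle genes RAN, RANBP1, RANGAP1 and RCC1 all among the fallers; RAN fell from 294 to 132 CPM and RCC1 from 40.4 to 13.1 CPM. Of 56 splicing genes 8 fell and 2 rose, SRSF2 from 19.7 to 6.12 CPM and SRSF3 from 165 to 76.1 CPM against CLK1, a kinase of SR proteins, which rose from 90 to 201 CPM.

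Several cytosolic chaperones fell, and few genes of the secretory path moved past 2-fold. Of 32 cytosolic chaperones 7 fell and 0 rose (median -0.48), and their share of fragments went from 1.53% to 0.975%. FKBP4, a cochaperone of HSP90, fell from 266 to 80.8 CPM, 3.29-fold [3.05 to 3.55], the chaperonin subunits CCT5, CCT7 and CCT3 from 780.3 to 288 CPM, from 449 to 189.8 CPM and from 638 to 295 CPM, and HSP90AA1 from 1978 to 925 CPM, 2.14-fold [2.09 to 2.19]. Of 29 genes of the endoplasmic reticulum 2 rose and 1 fell (median -0.16): HSPA5, its main chaperone, fell from 452 to 216 CPM, 2.1-fold [2 to 2.2], and the oxidase ERO1A and the cochaperone DNAJB9 rose from 142 to 285 CPM and from 8.79 to 20.2 CPM. XBP1 was at 94.4 CPM on day 6 against 91.2 on day 10. Of 38 proteasome genes 1 rose and 2 fell (median -0.54), the riser being the activator PSME4, from 93.2 to 250.5 CPM, 2.69-fold [2.51 to 2.88].

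Sterol synthesis genes fell at steps on both sides of squalene. Of 30 measured genes 9 fell and 2 rose (median -0.44). In pathway order, ACAT2 fell from 287 to 77.9 CPM, 3.69-fold [3.42 to 3.98], HMGCS1 from 361 to 106 CPM, 3.41-fold [3.19 to 3.64], and MVK from 44.3 to 11.6 CPM, 3.82-fold [3.14 to 4.69]. FDPS fell from 298 to 49.9 CPM, 5.96-fold [5.44 to 6.55], the most of the list. FDFT1 and SQLE, which make squalene and its epoxide, were at 117 and 97.3 CPM and 138 and 136 CPM. After them LSS and CYP51A1 fell from 234 to 104 CPM and from 134 to 63.8 CPM, while MSMO1 was at 74.2 and 133 CPM and HSD17B7 rose from 116 to 268 CPM. The sterol exporter ABCA1 rose from 18.2 to 43.9 CPM, 2.41-fold [2.04 to 2.84]. Of 25 fatty acid and glycerolipid genes 6 fell and 2 rose (median -0.25). The desaturases FADS1 and FADS2 fell from 77.2 to 32.8 CPM and from 45.9 to 20.3 CPM, and ACLY, which supplies acetyl-CoA, from 343 to 152 CPM, 2.26-fold [2.13 to 2.4]. The phosphatase LPIN2 rose from 68.3 to 189 CPM, 2.77-fold [2.55 to 3], and the acetyl-CoA carboxylase ACACA was at 206 and 122 CPM.

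Several genes that store, make and break down retinoids rose. On the list of aldehyde, retinoid and xenobiotic enzymes 9 of 30 rose and 2 fell (median 0.41). CYP26A1, which breaks down retinoic acid, went from 0 fragments to 70, LRAT, which stores retinol as esters, rose from 1.49 to 8.19 CPM, 5.49-fold [3.28 to 9.69], and DHRS3, which returns retinal to retinol, from 3.48 to 9.61 CPM, 2.76-fold [1.91 to 4.05]. RDH10, the dehydrogenase that makes retinal, rose from 17.5 to 60.9 CPM, 3.48-fold [2.98 to 4.09], and ALDH1A3, which makes retinoic acid, from 2.99 to 9.79 CPM, 3.28-fold [2.23 to 4.94]. RDH11 fell from 21.9 to 7.25 CPM, and DHRS9 went from 13 fragments to 0. The receptors RARA, RARB and RARG were at 77.7 and 91.5 CPM, 42.4 and 48.1 CPM and 106 and 142 CPM. The aldo-keto reductase AKR1B10 rose from 37.8 to 162 CPM, 4.27-fold [3.85 to 4.75].

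Clock genes moved in opposite directions within the feedback loop. In the core loop, ARNTL and CLOCK form the activator and PER and CRY proteins its inhibitors. ARNTL fell from 17.1 to 7.44 CPM, 2.3-fold [1.76 to 3.02], and CLOCK was at 50.6 and 47.8 CPM. PER1 rose from 34.8 to 74.9 CPM, 2.15-fold [1.91 to 2.43], PER2 from 3.65 to 12.5 CPM, 3.43-fold [2.42 to 4.94], and CRY1 from 7.8 to 18.9 CPM, 2.43-fold [1.89 to 3.14]. NR1D2, a repressor of ARNTL, rose from 14.7 to 40.5 CPM, 2.76-fold [2.31 to 3.31], and its competitor RORA from 2.99 to 10.8 CPM, 3.63-fold [2.48 to 5.43]. The output factors TEF and HLF rose from 4.89 to 16.8 CPM, 3.43-fold [2.54 to 4.68], and from 1.41 to 4.62 CPM, 3.27-fold [1.85 to 6.06], and the repressor BHLHE41 from 2.07 to 7.44 CPM. CRY2, NR1D1, NFIL3 and BHLHE40 were under 2-fold. In all, 8 of 29 genes of the list of nuclear receptors and clock genes rose and 2 fell (median 0.23), the other faller being NR4A1, an early response gene, from 3.65 to 1.13 CPM. The time of day of each harvest is not given in the sources used here.

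**Figure D5:**
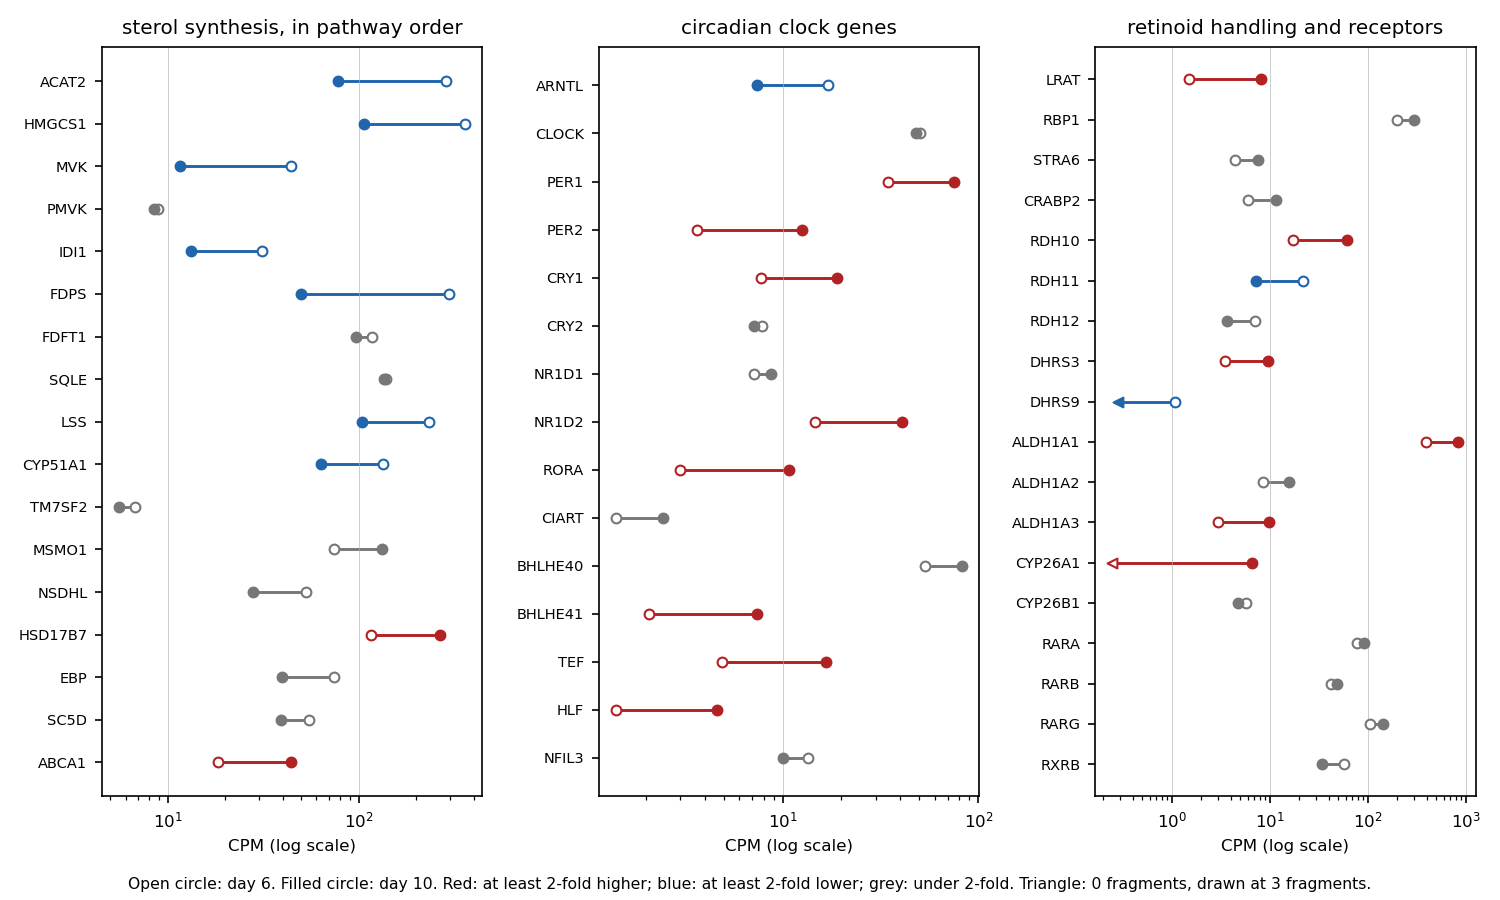
Levels in CPM on a log axis on day 6 (open symbols) and day 10 (filled symbols) for sterol synthesis genes between ACAT2 and SC5D with ABCA1, for circadian clock genes and for retinoid genes and receptors, 1 library a day and no error bars; a triangle marks 0 fragments and is drawn at the level of 3 fragments. ARNTL lies lower on day 10 and PER1, PER2 and CRY1 higher, and SQLE differs by less than 2-fold between falls at earlier and later steps.

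Few mitochondrial and glycolytic genes moved past 2-fold. Of 54 nuclear genes of the respiratory chain 2 fell and 0 rose (median -0.42), COX4I1 from 728 to 336 CPM and cytochrome c, CYCS, from 99.3 to 39.1 CPM. Of 13 genes encoded in the mitochondria 1 rose, ND3 from 83.3 to 183 CPM, and 0 fell, with a median of -0.02, whose sign turned with library totals in place of TMM factors (0.005). Of 26 TCA cycle genes MDH2 and IDH3A fell, from 280.2 to 89.5 CPM, 3.13-fold [2.91 to 3.37], and from 124 to 36.6 CPM, 3.38-fold [3.02 to 3.79]. In the pentose phosphate path RPIA fell from 12.1 to 2.92 CPM. BDH1, an enzyme of ketone bodies, fell from 46.2 to 12.4 CPM, 3.72-fold [3.07 to 4.53]. Of 28 glycolysis genes 2 rose and 0 fell (median 0.08). PFKFB3, which makes the activator of phosphofructokinase, rose from 148 to 368 CPM, 2.47-fold [2.34 to 2.62], and MPC2, a pyruvate carrier subunit, from 28.2 to 70.4 CPM; the other subunit MPC1 was at 39.1 and 19.7 CPM. LDHA was at 11030.3 and 8879 CPM and LDHB at 2218 and 3372 CPM. Of 25 hypoxia response genes 7 rose and 3 fell (median 0.70). EPAS1, a hypoxia factor, rose from 3.98 to 17.1 CPM, 4.31-fold [3.12 to 6.05], and NDRG1 from 582 to 1285 CPM, 2.21-fold [2.14 to 2.27], while ANGPTL4 fell from 3.07 to 0.848 CPM; HIF1A was at 640.3 and 798 CPM. Among 30 antioxidant genes GPX1, a glutathione peroxidase, was the 1 riser, from 61.3 to 224 CPM, 3.66-fold [3.37 to 3.98].

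Lysosome and autophagy genes rose in part. Of 44 lysosome genes 10 rose and 1 fell (median 0.44). The cathepsins CTSS and CTSH rose from 1.41 to 16.5 CPM, 11.7-fold [7.09 to 20.5], and from 18.7 to 76.2 CPM, 4.07-fold [3.5 to 4.73], and the hexosaminidase subunit HEXA from 78.8 to 180.2 CPM; GUSB fell from 19.2 to 8.1 CPM. CTSD and LAMP1 were at 226 and 222 CPM and 158 and 162 CPM. CD68, whose rise is given above, is itself a lysosomal protein. Of 31 autophagy genes 8 rose and 0 fell (median 0.56). The cargo receptors SQSTM1, NBR1 and TAX1BP1 rose from 108 to 299.9 CPM, 2.77-fold [2.6 to 2.96], from 130.4 to 345 CPM, 2.65-fold [2.49 to 2.81], and from 167 to 354 CPM, 2.11-fold [2 to 2.23], and GABARAP, a membrane conjugate, from 104 to 293 CPM, 2.81-fold [2.63 to 3.01]. MAP1LC3B, its relative, was at 46.3 and 43.4 CPM, and the initiators BECN1 and ULK1 at 100.4 and 93.9 CPM and 54.8 and 64.8 CPM. Of 37 cell death genes 8 rose and 1 fell (median 0.09). The death ligand TNFSF10 rose from 11.4 to 29.7 CPM and the killers BMF and BBC3 from 6 and 8 fragments to 48 and 30, and so did the inhibitors of apoptosis BIRC3 and XIAP, from 29.9 to 90.5 CPM, 3.02-fold [2.68 to 3.42], and from 12.5 to 37.9 CPM, 3.02-fold [2.5 to 3.67]. CASP2 fell from 41.1 to 19.4 CPM.

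Of 40 WNT pathway genes 3 rose and 3 fell (median 0.03): beside WNT11, the secreted inhibitor DKK1 rose from 2 to 175 fragments after 97 on day 4, while AXIN2, a common target, was at 1.24 and 1.41 CPM. ROR2, a receptor, fell from 25.8 to 9.79 CPM. Of 40 BMP and TGF-beta genes 5 rose and 3 fell (median 0.22). SKIL, a repressor of SMAD proteins, rose from 3.4 to 24.4 CPM, 7.17-fold [5.14 to 10.2], TGFBR3 from 11.8 to 30.1 CPM, and LTBP2 and the BMP inhibitor GREM1 fell from 8.71 to 0.848 CPM and from 7.3 to 2.64 CPM; the targets ID1 and ID3 were at 45.3 and 81.6 CPM and 19.6 and 37 CPM. Of 25 genes of the insulin-like growth factor axis 3 rose and 4 fell (median -0.05). IGFBP5, a binding protein, rose from 24.9 to 182 CPM, 7.33-fold [6.49 to 8.31], and the receptor IGF1R was at 64.4 and 57.8 CPM. In the list of the EGF receptor family and its ligands 2 of 30 rose and 2 fell (median -0.02). The receptor ERBB3 rose from 64.5 to 161 CPM, 2.49-fold [2.29 to 2.72], EGFR was at 181 and 193 CPM, and the phosphatases that damp ERK moved apart, DUSP4 rising from 8.54 to 25 CPM and DUSP6 falling from 29.4 to 11.7 CPM. Among AP-1 and early genes 3 of 17 rose and 1 fell (median 0.36). FOSL2 rose from 38.6 to 78.4 CPM, 2.03-fold [1.81 to 2.28], and FOS and JUN were at 12.3 and 8.01 CPM and 20.5 and 18.3 CPM. Of 41 guidance genes 4 rose and 2 fell (median -0.12). SEMA3A rose from 9.29 to 54.8 CPM, 5.9-fold [4.81 to 7.29], and SLIT2 and SLIT3 fell from 7.71 to 0.659 CPM and from 27.4 to 6.22 CPM. Of 46 RAB genes, RAB27B, which docks secretory vesicles, was the 1 riser, from 5.64 to 33.1 CPM, 5.88-fold [4.52 to 7.74].

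Interferon response genes moved both ways. Of 36 measured genes 3 rose and 5 fell, beside 8.43% and 7.25% of all measured genes. Their median was 0.01, which was -0.13 with a minimum of 5 CPM. The factor IRF7 rose from 100.2 to 478 CPM, 4.77-fold [4.48 to 5.08], and UBA7, which activates ISG15, from 8.29 to 18.9 CPM, while IFIT2, IFIT3, IFIT5, CMPK2 and RSAD2 fell, IFIT3 from 116 to 32.9 CPM, 3.53-fold [3.13 to 3.98]. On day 4 these fallers had been lower than on either later day, IFIT3 at 9.54 CPM, IFIT5 at 1.56 CPM and RSAD2 at 1.65 CPM, so their highest level of the 3 libraries was the one on day 6, which both differences share. A low day 4 level was not particular to them: 32 of the 36 genes were at least 2-fold higher on day 6 than on day 4. The summed level of the list was 340 CPM on day 4, 1508 on day 6 and 1732 on day 10. ISG15 was at 44.5 and 24.3 CPM and MX1 at 15.1 and 21.7 CPM. Of 23 cytokine and chemokine genes 4 rose and 6 fell (median -0.47). IL18 rose from 71.3 to 176 CPM, 2.46-fold [2.27 to 2.68], and IL15 from 5.72 to 14 CPM, 2.45-fold [1.83 to 3.31], and the neutrophil attractant CXCL8 fell from 12.1 to 2.92 CPM, 4.15-fold [2.8 to 6.33], with IL1A from 136 to 60.9 CPM. CCL5 went from 19 fragments to 0. B2M, the light chain of class I molecules, rose from 112 to 239.6 CPM, and ERAP1, which trims their peptides, from 14.6 to 46.5 CPM, 3.19-fold [2.68 to 3.81]; PSMB10 of the immunoproteasome fell from 9.46 to 2.83 CPM. S100A9, a calcium-binding alarm protein, fell from 286 to 85.1 CPM, its partner S100A8 was at 49.4 and 30.3 CPM and S100A6 at 5407 and 5304 CPM. LGALS9 and LGALS7 rose from 10.9 to 36.9 CPM and from 3.98 to 13.1 CPM, against the fall of LGALS1.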

How the data were processed

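The RNA-seq tables of the 3 libraries, 1 for each stage, have 38696 rows of coding sequences and 20536 names of genes. According to the headers, the authors deposited fragment counts and read counts, which are expected counts (44.9% to 46.5% of all rows of a table, zeros included, hold a fractional fragment value), a coverage signal per coding sequence, and FPKM, RPKM and TPM values scaled for length and depth. Per the submitters' processing notes, the build is OryCun2.0. The sources used here name no aligner or counter and no use of strand, and overlapping, antisense and near-identical genes are therefore uncertain.

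Fragment counts were summed per gene name and rounded. CPM used effective library sizes of 10617407 (day 10) and 12057671 (day 6), from TMM factors of the 3 libraries (edgeR 4.0.16, R 4.3.3). Genes with 1 CPM on either day were kept. Differences are of log2(CPM + 1), folds are CPM ratios, and a count of 0 was set at 3 fragments (0.249 CPM on day 6, 0.283 CPM on day 10). Intervals are exact 95% Clopper-Pearson intervals (scipy 1.17.1); they cover counting error only, as PCR copies are not independent molecules. Tables were handled with Python 3.11.15 and pandas 2.3.3 and drawn with matplotlib 3.10.9.

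Of 5185 LOC names, 718 had a symbol in the RefSeq table of mOryCun1.1, used for names and neighbours only, and 671 took it. Named genes are the 20 largest rises and 20 largest falls among named genes with 10 CPM, the 15 largest gains and losses in CPM, the 10 most abundant genes of each library, up to 4 risers and 4 fallers of each of 70 lists, cell type markers, genes at pathway steps, genes at 0 on 1 day with 5 CPM on the other, and genes nearest the limits. Members and lists were chosen with earlier results of these data known. Alternatives were other scalings (DESeq2 1.42.0 size factors among them), the deposited TPM, read counts, 1 coding sequence a gene, other pseudocounts, minimums and folds. A planned description of promoter motifs was not run, and some of the named genes are not reported here.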

Additional observations from a re-analysis of the deposited data

How the results depend on the processing

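With a pseudocount of 5 CPM in place of 1, which shrinks low genes, 562 genes rose and 452 fell. At 4-fold in place of 2-fold, 215 rose and 32 fell. Under the other settings the counts stayed within 1.5 times the reported 1058 and 910: library totals with no TMM factor gave 1099 and 857, TMM factors of these libraries alone 1048 and 899, DESeq2 size factors 1077 and 887, the deposited TPM 902 and 840, read counts 1066 and 903, the top coding sequence of each gene 994 and 890, a pseudocount of 0.1 CPM 1385 and 1223, no minimum 1058 and 910, and a minimum of 5 CPM 834 and 782. With no minimum the counts could not change, because a gene under 1 CPM on both days cannot pass 2-fold on the log2(CPM + 1) scale. With a minimum of 5 CPM they could not rise. Of 403 named genes past 2-fold, 399 stayed past it with no TMM factor, 367 with the deposited TPM, 388 with the top coding sequence and 302 with a pseudocount of 5 CPM, and 0 changed sign under any of the 8 settings run for them. A pseudocount of 0.1 or 5 CPM cannot change the sign of a gene, so these settings could not have shown it. With the deposited TPM, the genes under 2-fold included TFAP2B, NR4A1, A2ML1, C3, C1S, CFTR, VCAN, MMP3, FLG, ERO1A, ABCA1, ANGPTL4, DHRS9, LTBP2, UBA7, GSDMA and SERPINH1. The cause was not tested. Of all 70 list medians, small ones included, 6 changed sign with a minimum of 5 CPM, 4 with no minimum and at most 3 under any other setting. Of the 47 list medians of at least 0.25 in size, 0 changed sign under any of the 10 settings run for them. A pseudocount, which turns the sign of no gene, could hardly have turned these medians. They did move in size. With a pseudocount of 5 CPM 11 of them moved by over 1.5 times, among them mucins (1.50 to 0.87), corneal keratins (0.84 to 0.45), cornified envelope proteins (0.81 to 0.53), tight junction genes (0.52 to 0.24, 7 risers to 2) and replication fork enzymes (-0.73 to -0.46). Risers among cell death genes went from 8 to 3 and among hypoxia genes from 7 to 3. With no minimum 8 medians moved as much, among them mucins (0.95) and secreted defence proteins (0.73 to 0.30), with a minimum of 5 CPM 5, with the top coding sequence 3, with the deposited TPM 2 and with the other 5 settings 0. Depth limits the genes at few fragments, whose intervals are wide, and 1 library a day limits all results. No replicate could be left out, and no paired analysis was possible because each stage had 1 library.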

Other observations

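No fragment was counted on day 6 for 64 of the genes measured on day 10, and 13 of these reached 5 CPM. In the other direction 12 genes measured on day 6 had no fragment on day 10, and 0 of them reached 5 CPM. With the day 6 level set at 3 fragments, the lower bounds of the rises are as follows. MUC12, a membrane mucin, had 136 fragments on day 10, at least 51.5-fold higher, and 1 on day 4. APOBEC1, a cytidine deaminase that edits RNA, had 130, at least 49.2-fold higher, and 6 on day 4. PTPRR, a phosphatase of the ERK path, reached 9.23 CPM and ASPRV1, an aspartic protease of cornifying epidermis, 7.44 CPM. SLC13A5, a citrate importer, reached 5.18 CPM and ETNPPL, a lyase of ethanolamine phosphate, 5.27 CPM. The others were CYP26A1, given with the retinoid genes, and 6 genes without a symbol, of which LOC100357554 was highest in CPM, at 27.9 CPM.

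Of 1449 measured genes without a symbol, 145 rose and 118 fell, beside 1058 and 910 of all 12544 measured genes (8.43% and 7.25%). The genes without a symbol described here were chosen after their values were seen. LOC100353821 rose from 0.581 to 419 CPM, 722-fold [349.9 to 1796], after 1.01 CPM on day 4. LOC103345926, between DDX24 and PPP4R4 in mOryCun1.1, rose from 2.65 to 518 CPM, 195-fold [138 to 286]. LOC100350165, near CRISP1 and RHAG in that assembly, rose from 6.05 to 565 CPM, 93.4-fold [74.2 to 119]. LOC100342826 fell from 312 to 86.6 CPM and LOC100342321 from 175 to 49.7 CPM, after 4.59 and 3.3 CPM on day 4, so both were highest on day 6. What these genes code for is not given in the sources used here.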
